A study of Arabidopsis thaliana with 4 samples.

Results

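The ETHYLENE RESPONSE FACTOR (ERF) genes of group IX encode transcription factors with 1 AP2/ERF DNA-binding domain. The 10 genes described here, *ERF1A*, *ERF2*, *ERF5*, *ERF6*, *ERF13*, *ERF104*, *ERF105*, *ERF1B*, *ORA59* and *ERF14*, were taken by locus from the 32633 loci of the deposited expression tables. RNA had been sequenced from leaves of 2 genotypes of *Arabidopsis thaliana*. The *ldl1 ldl2* double mutant carries T-DNA insertions in both *LSD1-LIKE* genes, which encode homologs of a human histone H3K4 demethylase, and was made by crossing 1 mutant allele of each gene. Wild-type (WT) plants were Columbia-0 (Col-0), which is also the background of the mutant. All plants were 3 weeks old, uninfected and untreated, and were grown in soil with 12 h of light per day. Each genotype had 2 biological replicates, numbered 1 and 2.

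Group IX factors bind the GCC box, a GC-rich element in the promoters of many defense genes, and most of them activate transcription. Ethylene, jasmonate, wounding and microbial patterns induce several of these genes within minutes to hours, and MAP kinases phosphorylate some of the proteins. The family is divided into subgroups IXa (*ERF1A*, *ERF2* and *ERF13* among the genes described), IXb (*ERF5*, *ERF6*, *ERF104* and *ERF105*) and IXc (*ERF1B*, *ORA59* and *ERF14*). The comparison asked whether their RNA differed between *ldl1 ldl2* and WT leaves before any infection.

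Each of the 10 genes is a single exon in the annotation. *ERF6* with *ERF1A*, and *ERF2* with *ERF5*, are head-to-head neighbors, in which an IXa and an IXb gene point away from each other. *ERF6* (AT4G17490, minus strand, chr4:9752824-9754161 in the RefSeq TAIR10.1 assembly) lies 5041 bases from *ERF1A* (AT4G17500, plus strand, chr4:9759203-9760391), with 0 annotated loci of the expression tables in between. *ERF2* (AT5G47220, minus strand, chr5:19171643-19172956) lies 6924 bases from *ERF5* (AT5G47230, plus strand, chr5:19179881-19181182), with 1 locus in between that was listed at 0 in all 4 libraries. The coding sequences of *ERF1A* and *ERF2* were 77.6% identical over 700 aligned bases, and those of *ERF5* and *ERF6* were 79.6% identical over 813. The 250 bases before the annotated start of these 4 genes are shown because these genes are the neighboring members, and because those of *ERF1A* and *ERF2* share a long stretch. Capitals mark the W-box core TTGAC, the G-box CACGTG and the TATA box TATAAA on either strand, and overlapping matches run together.

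*ERF1A* (chr4:9758953-9759202, plus strand): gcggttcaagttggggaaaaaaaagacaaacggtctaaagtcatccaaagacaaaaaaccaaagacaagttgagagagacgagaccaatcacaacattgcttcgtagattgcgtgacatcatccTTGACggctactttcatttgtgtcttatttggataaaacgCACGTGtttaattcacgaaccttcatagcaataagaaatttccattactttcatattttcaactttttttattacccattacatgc
*ERF2* (chr5:19172957-19173206, minus strand): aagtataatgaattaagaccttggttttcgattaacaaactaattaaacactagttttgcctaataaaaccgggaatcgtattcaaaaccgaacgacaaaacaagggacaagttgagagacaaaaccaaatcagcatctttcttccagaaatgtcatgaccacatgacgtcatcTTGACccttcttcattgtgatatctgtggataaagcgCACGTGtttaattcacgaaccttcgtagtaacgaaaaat
*ERF5* (chr5:19179631-19179880, plus strand): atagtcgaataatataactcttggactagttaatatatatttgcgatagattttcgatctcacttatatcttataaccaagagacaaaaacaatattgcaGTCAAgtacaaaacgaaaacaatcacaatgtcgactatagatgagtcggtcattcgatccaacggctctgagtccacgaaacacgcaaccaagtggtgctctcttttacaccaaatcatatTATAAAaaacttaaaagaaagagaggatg
*ERF6* (chr4:9754162-9754411, minus strand): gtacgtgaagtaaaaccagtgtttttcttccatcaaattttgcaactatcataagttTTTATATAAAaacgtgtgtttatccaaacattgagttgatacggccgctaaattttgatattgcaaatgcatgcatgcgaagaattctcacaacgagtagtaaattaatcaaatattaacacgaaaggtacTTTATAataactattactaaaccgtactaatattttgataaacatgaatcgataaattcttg

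The longest run of bases that *ERF1A* and *ERF2* shared upstream was 26 bases long and held the G-box of both genes:
shared run: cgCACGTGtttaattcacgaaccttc
It lay at positions -88 to -63 of *ERF1A* and -41 to -16 of *ERF2*, counted from the annotated start. Over the 45 pairs of members, the longest shared run had a median of 8 bases and the next longest had 13. Windows of 250 bases before to 50 after the start were compared across the 27443 protein-coding genes of the nuclear chromosomes, and 2 held this run. In such windows the G-box was found in 3 of 10 members (*ERF1A*, *ERF2* and *ORA59*) and in 7.68% of all genes. The W-box core was found in 6 of 10 members and in 50.48% of all genes, and the TATA box in 5 of 10 and in 52.15%. The GCC box GCCGCC was found in *ORA59* alone among the members and in 2.57% of all genes. The rapid stress response element CGCGTT, searched in the same way, was found in 0 of 10 members and in 3.40% of all genes. A match of letters is not evidence of binding.

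The leaf libraries were checked for tissue and handling before the genes were compared. The 6 leaf marker genes, such as *RBCS1A* for the small subunit of Rubisco, summed to 65713 and 51049 FPKM (fragments mapped to a gene, scaled by transcript length and by all fragments mapped in the library) in *ldl1 ldl2* replicates 1 and 2, against 72344 and 45749 in WT. The 6 root markers summed to at most 0.558 FPKM and the 3 seed markers to at most 0.130. The 5 flower markers summed to 3.28 and 4.30 FPKM in *ldl1 ldl2* and to 1.36 and 11.3 in WT, without a constant direction between the genotypes. *LDL1* was at 4.44 and 4.09 FPKM in *ldl1 ldl2* and at 4.37 and 5.0 in WT, and *LDL2* at 0.281 and 0.673 against 1.04 and 0.944. *LDL2* was thus lower in both *ldl1 ldl2* libraries than in both WT libraries, at values near or under the minimum for the test. A T-DNA insertion may leave reads on both of its sides, and read positions were not examined, so these gene values do not settle the labels. Libraries of the same replicate number were more alike than those of the same genotype. Across 16905 genes with a mean of at least 1 FPKM, Pearson's r of log2(FPKM + 1) was 0.954 between the genotypes in either replicate number, but 0.915 between the *ldl1 ldl2* libraries and 0.846 between the WT libraries. The evening clock gene *TOC1* was at 3.48 and 88.0 FPKM in *ldl1 ldl2* replicates 1 and 2 and at 2.94 and 109 in WT. The genotypes were compared within the replicate number, a choice set before these checks, as a log2 ratio of FPKM + 1, which understates the change of low values. This did not level every clock gene. The morning gene *CCA1* was at 16.6 FPKM in *ldl1 ldl2* replicate 1 and 50.4 in WT replicate 1, with log2 ratios of -1.55 and -0.49. Those of *LHY* were -1.27 and 0.16. Of 6 clock markers, 2 were higher in *ldl1 ldl2* in both replicate numbers, 1 was lower in both and 3 changed direction. The FPKM do not give the read depth, so the counting error of a value is unknown, and in bulk leaf RNA a change in the cells present cannot be told apart from a change in RNA per cell.

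Among the 10 genes, 7 had a mean of at least 1 FPKM, and all 7 were at a higher level in both *ldl1 ldl2* libraries than in both WT libraries. *ERF13* is among the 7 only through *ldl1 ldl2*, since its mean was 6.31 FPKM there and 0.936 FPKM in WT, so that a gene like it had to differ in order to be counted. The genotypes did not overlap in that direction in 8.25% of the 16905 genes tested. In both replicate numbers, 6 of the 7 exceeded WT by 2-fold or more, against a background of 1.4% of genes tested, and 0 were below WT by that factor, against 0.148%. The median log2 ratio of the 7 genes was 1.98, and that of all genes tested was -0.04. Of the 6 genes with a mean of at least 1 FPKM in both genotypes, 5 passed 2-fold in both replicate numbers, and their median was 1.99. These counts and medians describe the genes that reached the minimum and not all 10. The members were chosen with earlier results of these data known. The shares of all genes beside these and later counts are therefore for scale only. Summed over the 7 genes, the level was 434 and 493 FPKM in *ldl1 ldl2* replicates 1 and 2, against 102 and 198 FPKM in WT. None of the 7 passed limma over all genes (adjusted p = 1.00 for each), and neither did any of the 16905 genes at an adjusted p of 0.05. At an unadjusted p of 0.05, all 7 members and 394 genes passed, 302 of which (1.79%) were higher in *ldl1 ldl2*. In that fit the spread includes the difference between replicate numbers, and an exact permutation test of 2 libraries against 2 cannot give a two-sided p under 0.333. All 7 genes reached that smallest value. Any gene reaches it when its genotypes do not overlap, so it adds nothing to the lack of overlap given above. Genotypes did not overlap in the other direction, with *ldl1 ldl2* lower, in 13.3% of genes tested. With the replicate number as a block in limma, all 7 members passed at an adjusted p of 0.05, as did 1.84% of all genes in the direction of a higher level in *ldl1 ldl2*, but nothing in the labels says that the numbers pair the libraries.

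**Figure D1:**
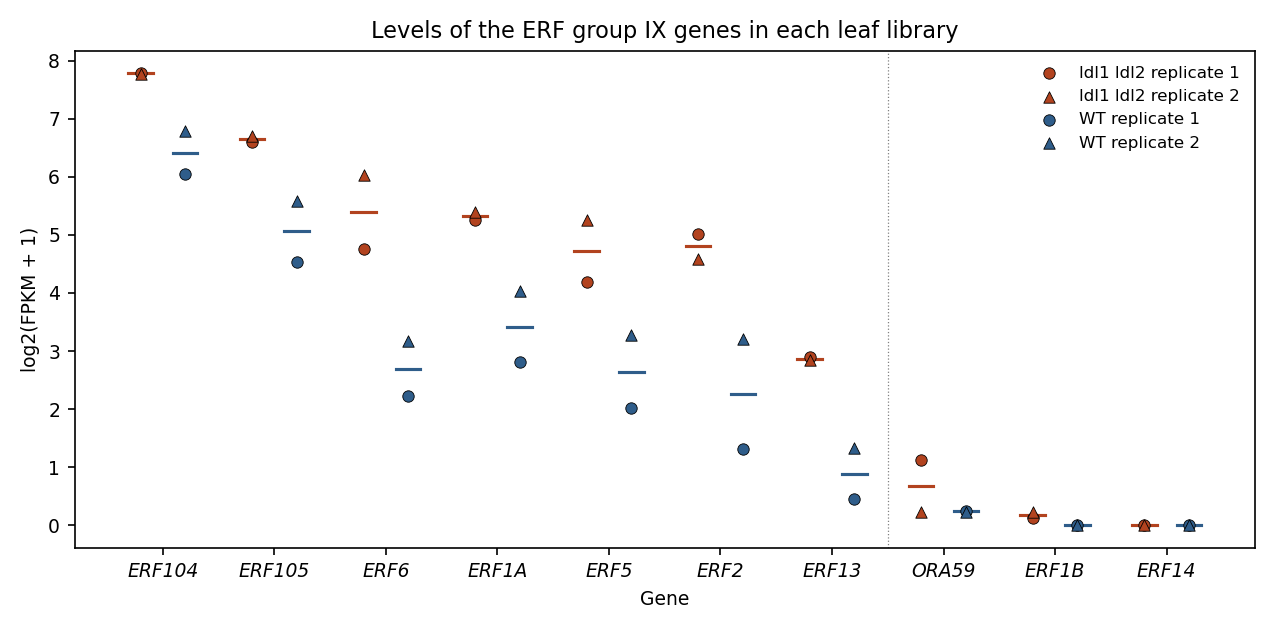
Level of each ERF group IX gene as log2(FPKM + 1) in the 4 leaf libraries, with *ldl1 ldl2* in red and WT in blue, circles for replicate 1, triangles for replicate 2 and bars for the mean of 2. Left of the dotted line are the 7 genes with a mean of at least 1 FPKM, in which both *ldl1 ldl2* libraries lie above both WT libraries; right of it are the 3 genes at or near 0.

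*ERF6* had the highest mean log2 ratio of the 10 genes with a pseudocount of 1, but its lead over *ERF2* is not resolved. With a pseudocount of 0.1, *ERF2*, *ERF13* and *ERF6* were level at 2.90, 2.89 and 2.89. *ERF2* was above *ERF6* without *ldl1 ldl2* replicate 2 or WT replicate 2, and below it without either of the other libraries. ERF6 is phosphorylated by the immune MAP kinases MPK3 and MPK6 and promotes defense gene expression. It was at 26.0 and 64.3 FPKM in *ldl1 ldl2* replicates 1 and 2, against 3.67 and 7.99 FPKM in WT. Both genotypes were higher in replicate 2, and the higher WT library was well below the lower *ldl1 ldl2* library. The log2 ratio was 2.53 in replicate 1 and 2.86 in replicate 2, a mean of 2.70 (standard error 0.59 from limma, unadjusted p = 0.0083, adjusted p = 1.00), rank 32 of the 16905 genes. *ERF5*, its closest relative by coding sequence, encodes a factor that acts together with ERF6 in the response to chitin. It was at 17.2 and 37.3 FPKM in *ldl1 ldl2*, against 3.04 and 8.68 FPKM in WT. The log2 ratios were 2.17 and 1.99, the closest agreement between replicate numbers among the 7 genes.

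The IXa genes had a larger ratio in replicate 1 than in replicate 2, as did the IXb genes *ERF5*, *ERF104* and *ERF105* and 58.1% of all genes tested. *ERF2*, an activator through the GCC box, was at 31.5 and 23.0 FPKM in *ldl1 ldl2* replicates 1 and 2, against 1.48 and 8.26 FPKM in WT. This gave log2 ratios of 3.71 and 1.38, the widest gap between replicate numbers among the 7, and most of it lay in WT, where replicate 2 was 5.60 times replicate 1. The mean of 2.54 had a standard error of 0.70 (unadjusted p = 0.019 from limma, adjusted p = 1.00). *ERF1A*, the close copy of *ERF2* and also a GCC-box activator, was at 37.1 and 40.8 FPKM in *ldl1 ldl2*, against 5.99 and 15.4 FPKM in WT. The *ldl1 ldl2* libraries were nearly level and the WT libraries were not, and the log2 ratios were 2.45 and 1.35. *ERF13* (AT2G44840, plus strand, chr2:18495215-18496327) was the lowest of the 7, at 6.44 and 6.19 FPKM in *ldl1 ldl2*, against 0.362 and 1.51 FPKM in WT. Its log2 ratios of 2.45 and 1.52 were close to those of *ERF1A*, and they rest on WT values near the minimum for the test.

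*ERF104* and *ERF105* were the most abundant of the genes and had the smallest ratios. ERF104 is a substrate of MPK6 that is released on perception of flagellin. *ERF104* (AT5G61600, minus strand, chr5:24766344-24767732) was at 219 and 218 FPKM in *ldl1 ldl2* replicates 1 and 2, against 65.4 and 109 FPKM in WT. Its log2 ratios were 1.73 and 0.99, and the second is just under 2-fold, so that it is the 1 tested gene outside the count of 6. *ERF105* (AT5G51190, minus strand, chr5:20800473-20801437), known for a role in freezing tolerance, was at 96.4 and 103 FPKM in *ldl1 ldl2*, against 22.2 and 47.1 FPKM in WT, with log2 ratios of 2.07 and 1.11. The annotated locus AT5G51180 overlaps *ERF105*, and whether the FPKM used the strand of the reads is not given in the sources used here. *ERF104* took 50.5% and 44.3% of the summed level of the 7 genes in *ldl1 ldl2*, against 64.0% and 55.2% in WT. *ERF6* took 5.98% and 13.0% in *ldl1 ldl2*, against 3.60% and 4.02% in WT.

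The IXc genes were at or near 0. *ERF1B* (AT3G23240, chr3:8295617-8296604), a target of the ethylene regulator EIN3 that joins ethylene and jasmonate signals, was at 0.0952 and 0.165 FPKM in *ldl1 ldl2* and was listed at 0 in both WT libraries. *ORA59* (AT1G06160, chr1:1882907-1883992), the other known integrator of the 2 hormones and an activator of defensin genes, was at 1.19 and 0.172 FPKM in *ldl1 ldl2*, against 0.181 and 0.178 FPKM in WT. A single library, *ldl1 ldl2* replicate 1, stood above the other 3. *ERF14* (AT1G04370, chr1:1175033-1175768), which is needed for part of the ethylene-induced defense response, was listed at 0 in all 4 libraries. These 3 genes were under the minimum for the test, and a listed 0 may also be a failed estimate.

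**Figure D2:**
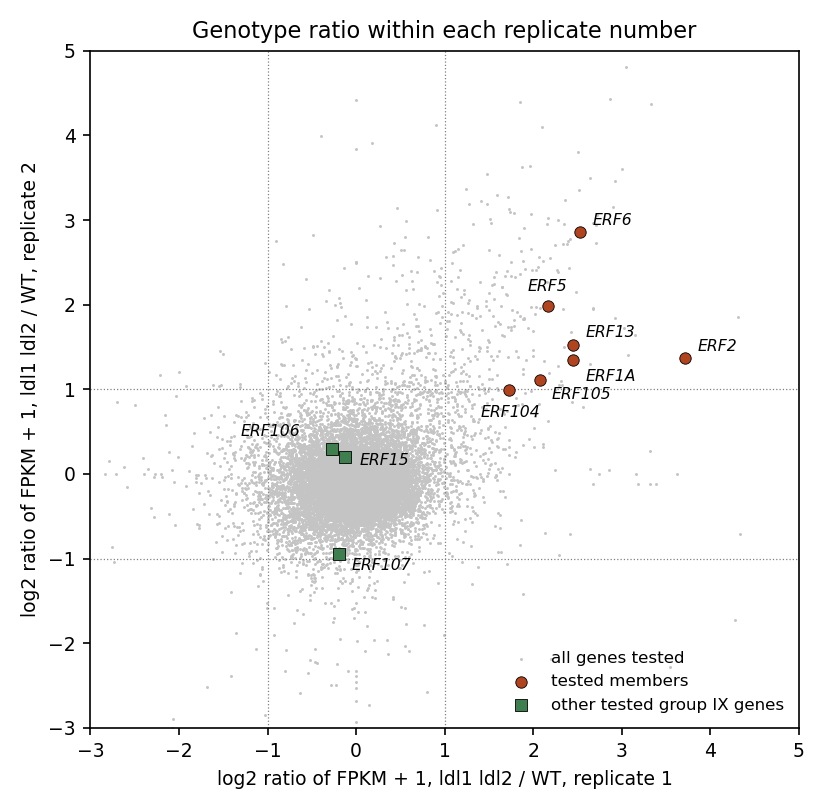
Log2 ratio of FPKM + 1 in *ldl1 ldl2* over WT within replicate 1 (horizontal) and within replicate 2 (vertical) for the genes tested (grey), the 7 tested members (red circles) and the 3 other tested group IX genes (green squares), with dotted lines at 2-fold. The 6 members called lie above 2-fold on both axes and *ERF104* at 1.73 and 0.99, while 51 genes fall outside the axis range.

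Among the 7 genes the levels in *ldl1 ldl2* ran from *ERF104* (219 ± 0.550 FPKM, SD, n = 2) and *ERF105* (99.6 ± 4.45) through *ERF6* (45.1 ± 27.1), *ERF1A* (38.9 ± 2.66), *ERF5* (27.3 ± 14.3) and *ERF2* (27.2 ± 5.96) to *ERF13* (6.31 ± 0.173). *ERF6* overlapped *ERF1A*, *ERF5* and *ERF2* in range, so their order is not resolved. In WT the levels were 87.4 ± 31.2 FPKM for *ERF104*, 34.7 ± 17.7 for *ERF105*, 10.7 ± 6.67 for *ERF1A* and 0.936 ± 0.811 for *ERF13* (SD, n = 2). *ERF5*, *ERF6* and *ERF2* in WT were at 5.86 ± 3.99, 5.83 ± 3.05 and 4.87 ± 4.80 FPKM and are not separated by their spread, their ranges reach into that of *ERF1A*, and that of *ERF2* reaches into that of *ERF13*. FPKM is scaled by transcript length, so these levels may be compared between genes.

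On the log2(FPKM + 1) scale the WT replicates lay further apart than the *ldl1 ldl2* replicates for all of the 7 genes except *ERF6*. In FPKM, *ERF2* and *ERF5* too had the larger SD in *ldl1 ldl2*. WT replicate 1 was the lowest of the 4 libraries for all 7 genes, and WT replicate 2 was at least 2-fold over WT replicate 1 in 4 of 7 on the log2(FPKM + 1) scale, against 12.2% of all genes tested. In *ldl1 ldl2*, replicate 2 was at least 2-fold over replicate 1 in 2 of 7, *ERF5* and *ERF6*, against 6.29% of genes. The ratio was larger in replicate 1 than in replicate 2 for 6 of 7 members and for 58.1% of all genes. For all 7 members the mean log2 ratio between genotypes was greater than the replicate difference within either genotype, which held in that direction for 5.37% of genes tested. Without WT replicate 1 the median log2 fold change of the 7 genes was 1.45 and 5 genes reached 2-fold in both remaining comparisons, and without WT replicate 2 these values were 2.51 and 7. Here both *ldl1 ldl2* libraries were set against the remaining WT library, so the comparisons also cross replicate numbers, unlike those behind the count of 6. With *ERF104* so near the line, centering each library on its median or quantile normalization raised the count of 6 to 7.

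**Figure D3:**
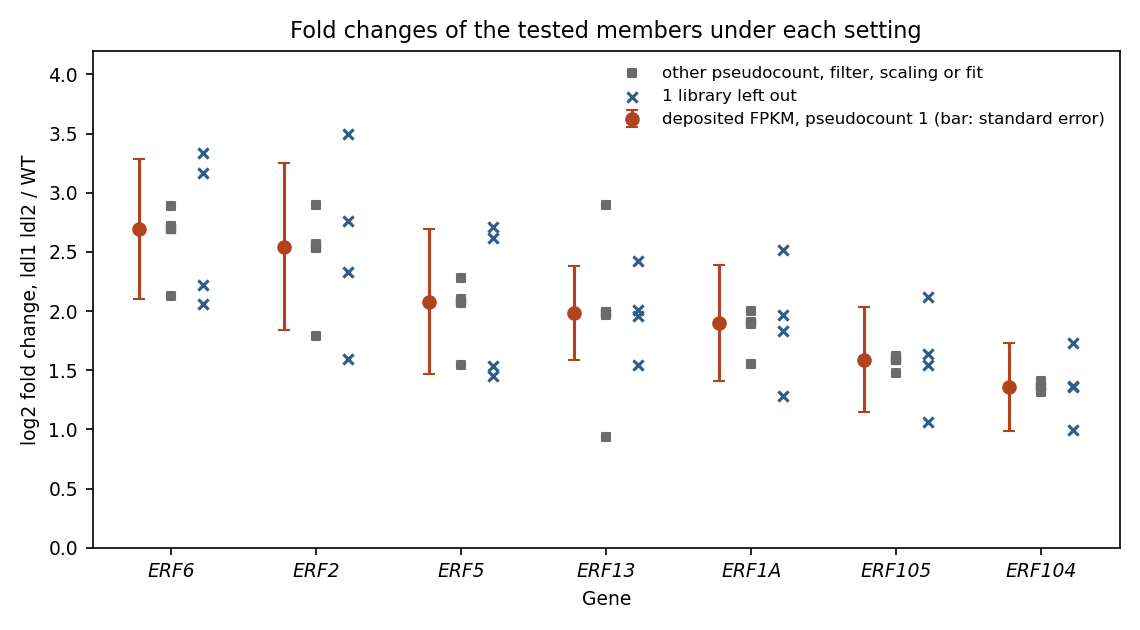
Log2 fold change of *ldl1 ldl2* over WT for the 7 tested members from the deposited FPKM with a pseudocount of 1 (red, with the standard error from limma), under other pseudocounts, filters, scalings and fits (grey squares) and with 1 library left out (blue crosses). All values are above 0, the lowest being 0.94 for *ERF13* with a pseudocount of 5.

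Of the other 7 genes of group IX, 3 had a mean of at least 1 FPKM, and 0 of these 3 were higher in *ldl1 ldl2* in both replicate numbers. Of all genes tested 19.8% were, so 0 of 3 is near the background. Another 3, *ERF091*, *ESE1* and *ERF96*, were listed at 0 throughout, and *ERF98* was at 0.343 and 0.591 FPKM in *ldl1 ldl2* and listed at 0 in both WT libraries. *ERF107*, also called *DEWAX* for its repression of wax synthesis genes, is the tandem neighbor of *ERF104*, 832 bases away on the same strand. It was at 306 and 230 FPKM in *ldl1 ldl2* replicates 1 and 2, against 348 and 442 FPKM in WT. Both *ldl1 ldl2* libraries were below both WT libraries, as in 13.3% of genes tested, and the log2 ratios were -0.19 and -0.94. *ERF106*, whose coding sequence was 80.4% identical to that of *ERF107*, was at 128 and 50.8 FPKM in *ldl1 ldl2*, against 155 and 41.2 FPKM in WT, with log2 ratios of -0.27 and 0.30. *ERF15*, of subgroup IXc, was at 2.34 and 3.23 FPKM in *ldl1 ldl2*, against 2.63 and 2.67 FPKM in WT. Counted by subgroup, the 2-fold line was passed in both replicate numbers by 3 of 3 IXa genes, 3 of 6 IXb genes and 0 of 8 IXc genes. The share of all genes tested was 1.4%. The IXa count includes *ERF13*, which reached the minimum only through *ldl1 ldl2*. Only 1 of the 8 IXc genes had a mean of at least 1 FPKM, so the others could not be counted. This division was made after the values were seen, and a difference between subgroups was not tested. The longest identical run shared by any pair of group IX transcripts was 32 bases, and the reads were 100 bases long.

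The other loci around the adjoining ERF genes did not have such ratios. Within 15 kb of *ERF6* and *ERF1A*, 6 other loci were tested, with log2 ratios from -0.50 to 0.41 in replicate 1 and from -0.39 to 0.35 in replicate 2. Within 15 kb of *ERF2* and *ERF5*, 6 other loci were tested, with log2 ratios from -0.47 to 0.33 and from -0.55 to 0.35. Within 15 kb of *ERF107* and *ERF104*, 5 other loci had log2 ratios from -1.17 to 0.45 and from -0.27 to 0.60. Of these neighbors, 0 differed 2-fold or more from WT in both replicate numbers. Of all genes tested, 1.4% were higher and 0.148% lower by that factor, so a count of 0 among so few loci is near the background.

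**Figure D4:**
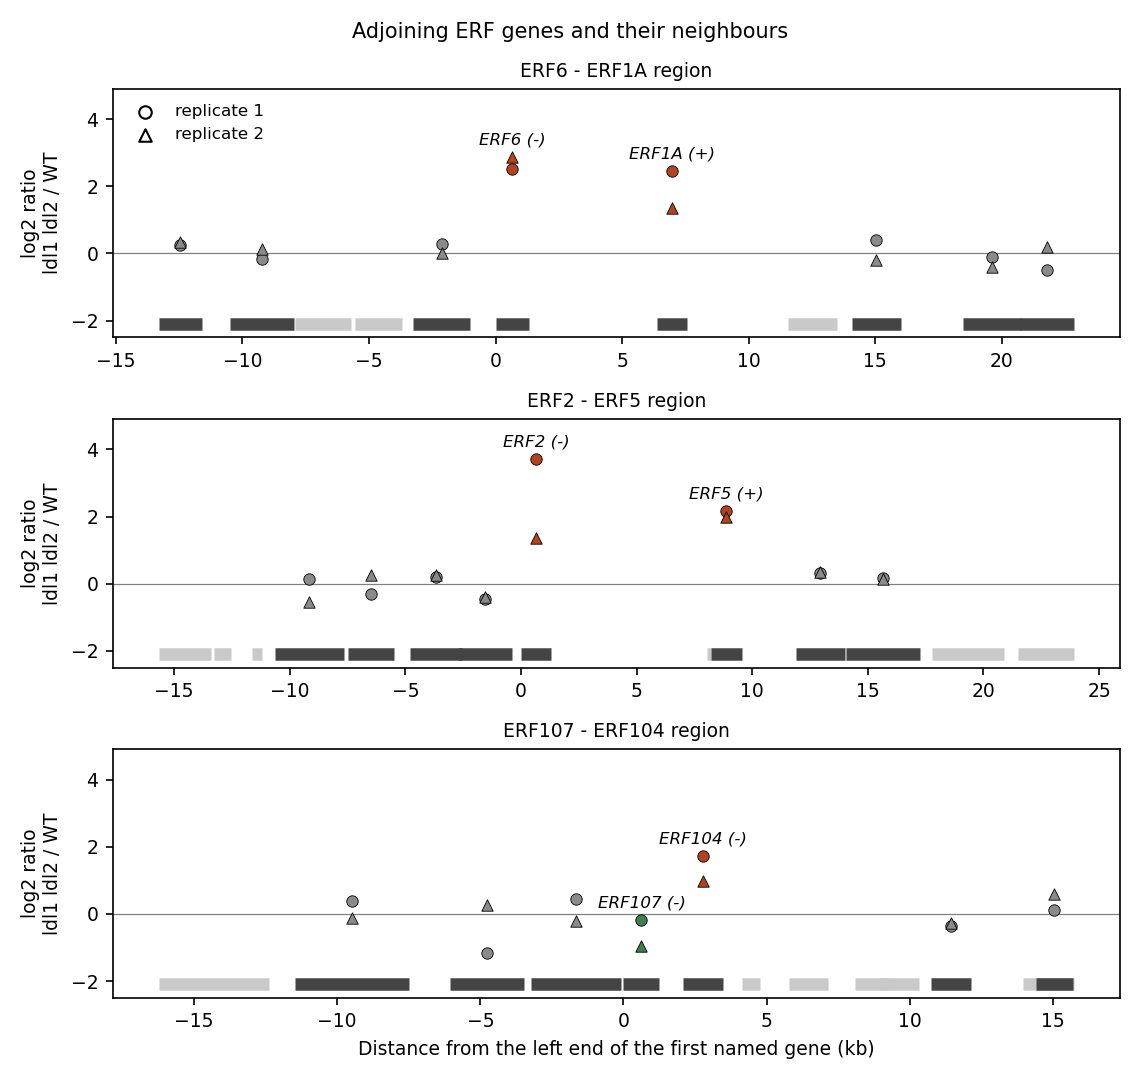
Log2 ratio of *ldl1 ldl2* over WT in replicates 1 (circles) and 2 (triangles) for tested loci around the adjoining ERF genes, against distance in kb, with members in red, *ERF107* in green and other loci in grey. Bars along the bottom are the annotated loci, dark where tested, and + or - is the strand; *ERF6*, *ERF1A*, *ERF2*, *ERF5* and *ERF104* lie above their neighbors in both replicates.

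Upstream of these factors, most tested genes of ethylene synthesis and of the MAP kinase cascade were higher in *ldl1 ldl2*, and genes of ethylene signaling had smaller ratios. Of 4 tested ethylene synthesis genes, 1 passed 2-fold in both replicate numbers (as did 1.4% of all genes, with 0.148% lower by that factor). All 4 were above WT in both (as were 19.8% of all genes), with a median log2 ratio of 1.06. *ACS8*, for an ACC synthase, is the 1 gene, and it reached the minimum for the test only through *ldl1 ldl2*. Without it the median of the other 3 was 0.49. It was at 8.68 and 2.18 FPKM in *ldl1 ldl2*, against 1.76 and 0.163 FPKM in WT. *ACS6*, for an ACC synthase that MPK3 and MPK6 stabilize, was at 81.8 and 97.3 FPKM in *ldl1 ldl2*, against 55.1 and 11.4 FPKM in WT. Of 10 tested ethylene signaling genes, 0 differed 2-fold or more in both replicate numbers, with a median of 0.28. In both replicate numbers 4 were higher, and 6 changed direction. For 4 of the 10, both *ldl1 ldl2* libraries were above both WT libraries, against 8.25% of all genes. Their median log2 ratio was 0.51 in replicate 1 and -0.08 in replicate 2 over the 10 genes. *EBF1*, for an F-box protein that degrades EIN3, was at 41.9 and 41.0 FPKM in *ldl1 ldl2*, against 26.7 and 26.4 FPKM in WT. The transcription factor gene *EIN3* had log2 ratios of 0.58 and -0.10. Of 5 MAP kinase genes, 0 passed 2-fold in both replicate numbers, with a median of 0.97. In both replicate numbers 4 were higher, with both *ldl1 ldl2* libraries above both WT libraries, and 1 changed direction. *MPK3* was at 129 and 104 FPKM in *ldl1 ldl2*, against 77.9 and 53.0 FPKM in WT, and *MKK4*, for a kinase upstream of it, was at 14.8 FPKM in both *ldl1 ldl2* libraries, against 8.60 and 4.70 FPKM in WT. *MPK6* had log2 ratios of 0.37 and -0.18. None of these genes passed limma over all genes, and with the replicate block *ACS8* (adjusted p = 0.0047) and *ACS6* (adjusted p = 0.049) did. With the block 1.84% of all genes passed with a higher level in *ldl1 ldl2*.

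Defense genes known as GCC-box outputs were low or differed without a constant direction. Of 7 such genes, 2 had a mean of at least 1 FPKM and 0 were higher in both replicate numbers, against 19.8% of all genes tested. *PR4*, a chitin-binding protein gene, was at 15.6 and 7.53 FPKM in *ldl1 ldl2*, against 5.66 and 8.69 FPKM in WT. The defensin gene *PDF1.2a* was at 1.90 FPKM in *ldl1 ldl2* replicate 1 and 3.09 in WT replicate 1, and it was listed at 0 in replicate 2 of both genotypes. The basic chitinase gene *PR3* was at 0.234 and 0.542 FPKM in *ldl1 ldl2*, against 0.283 and 0.419 FPKM in WT.

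Of 6 tested genes of group VIII, the ERF group with EAR repression motifs, 2 passed 2-fold in both replicate numbers, *ERF4* and *ERF11*. The share of all genes tested was 1.4%, and the median log2 ratio of the 6 was 0.85. *ERF11* was at 23.2 and 60.1 FPKM in *ldl1 ldl2*, against 4.28 and 9.42 FPKM in WT, and *ERF4* had log2 ratios of 2.34 and 1.95. Neither passed limma over all genes, and with the replicate block both did (adjusted p = 0.00041 for *ERF4* and 0.00018 for *ERF11*). With the block 1.84% of all genes passed with a higher level in *ldl1 ldl2*. The difference between the 2 ERF groups was not tested.

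**Figure D5:**
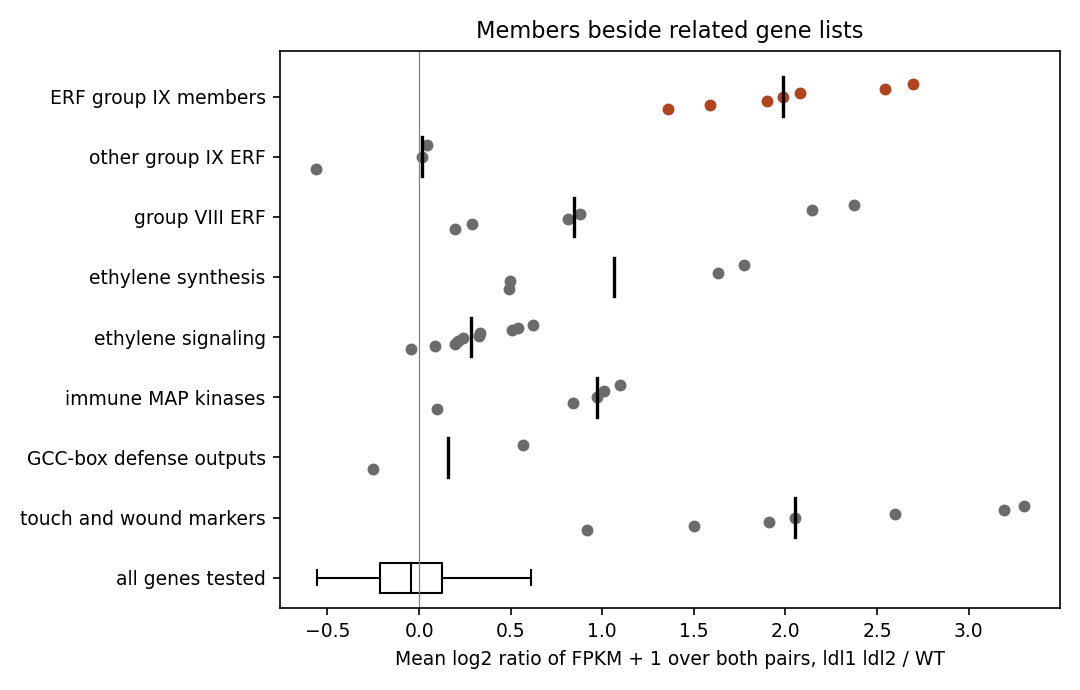
Mean log2 ratio over both replicate numbers of *ldl1 ldl2* over WT for the tested genes of each list, 1 point per gene, with the median as a black bar. The box at the bottom gives the quartiles of all 16905 genes, with whiskers at the 5th and 95th percentiles; the 7 ERF group IX members lie between 1.36 and 2.70 and the ethylene signaling genes between -0.04 and 0.62.

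Markers of touch and wounding were higher in *ldl1 ldl2* as well, although none passed limma over all genes. With the replicate block 5 of the 7 passed, *CML37*, *CML38*, *ZAT12*, *ZAT10* and *TCH3*, with adjusted p from 4.1e-05 to 0.0066. In that fit 1.84% of all genes passed with a higher level in *ldl1 ldl2*. Of 7 markers, 5 exceeded WT by 2-fold or more in both replicate numbers, against 1.4% of all genes tested, with a median log2 ratio of 2.05. Their summed level was 2239 and 1666 FPKM in *ldl1 ldl2*, against 1568 and 336 FPKM in WT. *CML37* and *CML38*, for calmodulin-like proteins, had the largest ratios. *CML38* was at 70.8 and 87.5 FPKM in *ldl1 ldl2*, against 8.45 and 7.02 FPKM in WT. The touch genes *TCH2* and *TCH4* had log2 ratios of 0.42 and -0.18 in replicate 1 but 2.58 and 2.02 in replicate 2. *TCH4* was at 831 and 671 FPKM in *ldl1 ldl2*, against 943 and 165 FPKM in WT, so that WT replicate 1, the lowest library for all 7 ERF genes, was the highest for *TCH4*. For *ZAT10* WT replicate 1 was the lowest, as for the ERF genes, at 28.8 FPKM against 56.5 in WT replicate 2 and 159 and 183 in *ldl1 ldl2*. WT replicate 2 was the lowest for the other markers. The part of leaf handling in the ERF levels was not tested.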

How the data were processed

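Per the paper's methods, the authors made stranded mRNA libraries from leaf RNA, sequenced 100 bp paired-end reads, processed the reads with TopHat2 and Bowtie2, and ran Cufflinks separately for the replicates against TAIR10 gene models to obtain FPKM. The submitters' processing notes name Trimmomatic 0.33. For the other tools the version is not given in the sources used here. The deposited FPKM cover 32633 loci per library, of which 11388 to 12113 were listed at 0, and they do not give the read depth.

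From these values log2(FPKM + 1) was computed without rescaling, and the 16905 loci with a mean of at least 1 FPKM were tested with limma 3.58.1 in R 4.3.3 (mean-variance trend, no replicate block, two-sided, Benjamini-Hochberg adjustment at 0.05). The fits were tested on simulated data. Named genes were all 10 members, examples from related gene lists and the 5 genes with the nearest profiles. *TCH2*, *TCH4*, *TOC1*, *CCA1*, *LHY*, *EIN3*, *MPK3*, *MPK6* and *PR3* were named after their values were seen, as was the division into subgroups. Members and lists were chosen with earlier results of these data known. RefSeq TAIR10.1 gave positions and upstream sequences by locus tag, matching 31893 loci and all 10 members. Coding bases were compared in place of proteins. Alternatives were pseudocounts of 0.1 and 5, no filter or a minimum of 5, median, quantile or nuclear scaling, a replicate block, no trend and leaving out each library.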

Additional observations from a re-analysis of the deposited data

How the results depend on the processing

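The log2 fold changes of the 7 tested members kept their direction under all 13 other settings, which gave 90 values, with *ERF13* tested under 12. Changing only the filter, block or trend leaves a fold change as it was. With both *ldl1 ldl2* libraries above both WT libraries, another pseudocount or a left-out library cannot reverse its direction either. The constant direction thus adds little to the lack of overlap. The replicate block moved the calls: with the replicate number as a block, 348 genes passed limma, and 7 members did, with adjusted p from 7.5e-05 for *ERF6* to 0.017 for *ERF104*, against 0.84 to 1.00 under every other setting. The numbers are not stated to mark shared plants or days, although the replicate differences of the genotypes had a correlation across genes of 0.726, so that fit is not the main one. With 1 library left out, where the lone library is assumed to vary like the other genotype, 0 to 3 genes passed, and 258 to 405 genes were at least 2-fold higher in all remaining comparisons (405 without WT replicate 1, 381 without WT replicate 2). The comparisons with 1 library left out also cross replicate numbers. Within replicate numbers, the count of genes at least 2-fold higher in both was 127 with a pseudocount of 5, in place of 236. *ERF13*, the lowest of the 7 genes, had a log2 fold change of 2.89 with a pseudocount of 0.1 and 0.94 with 5, with WT values of 0.362 and 1.51 FPKM, and it was not tested at a minimum of 5 FPKM. Scaling moved the median of all genes by at most 0.018. With 2 libraries per genotype and no read counts, the error of a low value such as that of *ERF1B* or *ORA59* cannot be given.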

Other observations

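Outside the family, 5 genes had the profile over the 4 libraries nearest to the mean of the 7 tested members, measured as the distance between centered log2(FPKM + 1) values. They are a description over 4 libraries. The nearest was *ZAT10* (listed as *STZ*, AT1G27730), a zinc-finger gene of the salt and drought response and 1 of the touch and wound markers, at a distance of 0.157. Among the members themselves, *ERF1A* lay at 0.180 from that mean and *ERF6* at 0.976. *ZAT10* was at 159 and 183 FPKM in *ldl1 ldl2* replicates 1 and 2, against 28.8 and 56.5 FPKM in WT. The floral repressor gene *MAF4* was also among the 5, at a distance of 0.441, with 6.67 and 8.19 FPKM in *ldl1 ldl2*, against 0.914 and 1.85 FPKM in WT. The other 3 were *AT1G05575*, *AT1G77960* and *AT1G52200*, with mean log2 ratios of 2.38, 2.32 and 1.84.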
